A study of Homo sapiens with 2 samples.

Results

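To compare the machinery of cell division between a pair of leukemia lines, 38 genes of DNA replication and mitosis were examined in RNA sequencing data from REH and 697 cells. The genes form a fixed list of symbols that was mapped to the Ensembl identifiers of the files, and the rule uses no measured value, although the list was drawn up with earlier results of these data known. They are 38 of 57773 genes counted, of which 16 act in DNA replication or in the step from G1 into S phase and 22 act in mitosis. Both lines come from acute lymphoblastic leukemia of the B-cell precursor type and were grown untreated in RPMI medium with fetal bovine serum, seeded at the same density, with no step to synchronise the cycle described in the sources used here. In REH the ETV6/RUNX1 fusion is present and the other ETV6 allele is deleted, and 697 serves as the line without that fusion. Each line is represented by 1 library from 1 culture, so there are no replicates, no test is given, and every difference is one between these libraries.

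Before S phase, the MCM helicase is loaded onto origins by CDC6 and CDT1, and it is switched on when CDC45 and the GINS complex join it. The E2F transcription factors, held back by RB proteins until cyclin-dependent kinases act, among them CDK2 with cyclin E, drive most of these genes together. Mitotic genes come later in the cycle, under the DREAM and MYB-FOXM1 complexes, and their products condense chromosomes, build the spindle, guard the attachment of kinetochores and finally allow the anaphase-promoting complex (APC/C) to destroy cyclin B. Because such genes are used mainly by dividing cells, their mRNA in a bulk culture depends on how many cells cycle and on how much each cell makes. These contributions, fewer cells in a phase or less RNA per cell, cannot be told apart here.

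Most of the 38 genes were moderately lower in REH than in 697, and the replication and mitotic sets shifted to a similar extent. Levels are given as CPM, the reads of a gene normalised to a library total that was scaled by TMM, a trimmed mean of the log ratios of genes, and the log2 ratio is REH over 697. The median log2 ratio was -0.49 for the 16 replication genes (order-statistic interval over genes -0.67 to -0.22) and -0.56 for the 22 mitotic genes (-0.74 to -0.12), a difference of 0.08. The median over all 19145 genes compared, which needed 10 reads in either library, was 0.05. Among the 9693 protein-coding genes that had 500 or more reads in either library, which are counted about as well as the members, it was -0.05. Of the 38 genes, 32 lay below that median and 16 lay below the lower quartile of those 9693 genes (-0.58), against 2 above the upper quartile (0.46). The sets differed more in spread than in centre, with an interquartile range of 0.31 for replication and 0.57 for mitosis.

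Part of this shift is a matter of scaling. TMM multiplied the totals by 1.11 in REH and by 0.899 in 697, and with unscaled totals the medians became -0.18 and -0.26 while the median of all genes compared moved from 0.05 to 0.36. Relative to the median of the 9693 well-counted coding genes, which moves with any scaling, the replication genes stood at -0.43 and the mitotic genes at -0.51. Without scaling, 6 members with small ratios changed sign, namely MCM2, MCM5, CDT1, CCNB2, AURKA and CDC20, which left 26 of the 38 genes below 0 in place of 32. With TMM scaling 5123 of the 9693 well-counted coding genes lay below 0, and without scaling their median rose to 0.25. The 32 members below that median remain so with any scaling. A share of all gene reads is the same measure as unscaled totals and moves with the make-up of each library. By that measure the replication genes took 0.421% in REH (95% Wilson interval 0.419% to 0.423%) and 0.483% in 697 (0.481% to 0.485%). The mitotic genes took 0.501% (0.499% to 0.503%) and 0.622% (0.620% to 0.625%). Such sums depend most on abundant genes. The mitotic reads numbered 226339 in REH and 255774 in 697. Of these, TOP2A held 43315 and 53888, and CENPF held 20228 and 44373. MKI67, also abundant, went the other way with 34968 and 25063. The shares thus do not describe each gene of a set alike.

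**Figure D1:**
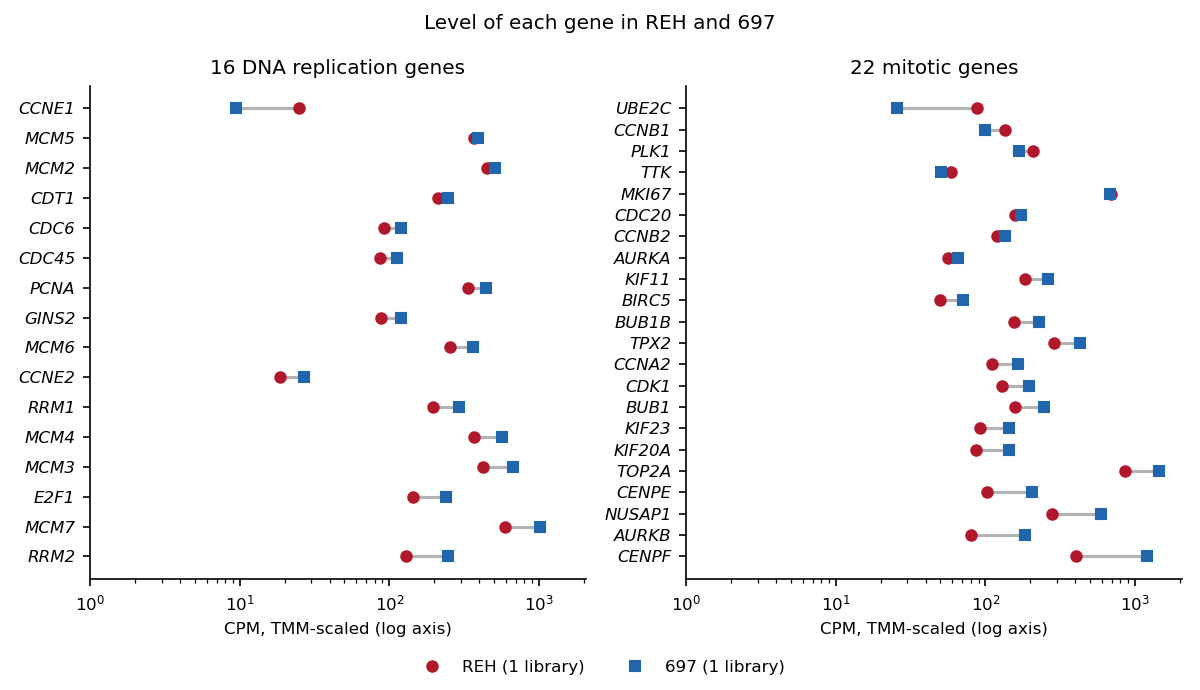
Level of each of the 38 genes in REH (red circles) and 697 (blue squares), as TMM-scaled CPM on a log axis, 1 library per line, ordered by log2 ratio within each set. For 32 genes the 697 symbol lies to the right (26 with unscaled totals), and CCNE1 and UBE2C show the widest gaps in the other direction.

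The threshold for calling a gene higher in either line was a doubling, a log2 ratio beyond 1 or -1. Higher in REH were 2 of the 38 genes, CCNE1 and UBE2C, against 22.4% of all genes compared and 12.1% of the well-counted coding genes. Higher in 697 were 3 genes, AURKB, CENPF and NUSAP1, against 17.4% and 13.7%. In neither direction did the members exceed the background share. None reached a log2 ratio of 2 in size with TMM scaling (UBE2C did with unscaled totals, at 2.07), the size that 12.5% of all genes compared passed towards REH and 8.15% towards 697, or 5.62% and 5.45% of the well-counted coding genes. With unscaled totals CENPF remained the only gene past -1, at -1.27, while AURKB stood at -0.90 and NUSAP1 at -0.77. The background shares above are for TMM scaling and do not apply to unscaled totals. With TMM scaling the 95% counting interval lay below 0 for 32 members and above 0 for 6, and no interval was wider than 0.35. That is common in the background, where the interval lay below 0 for 38.2% and above 0 for 40.1% of all genes compared, and for 48.2% and 42% of the well-counted coding genes.

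**Figure D2:**
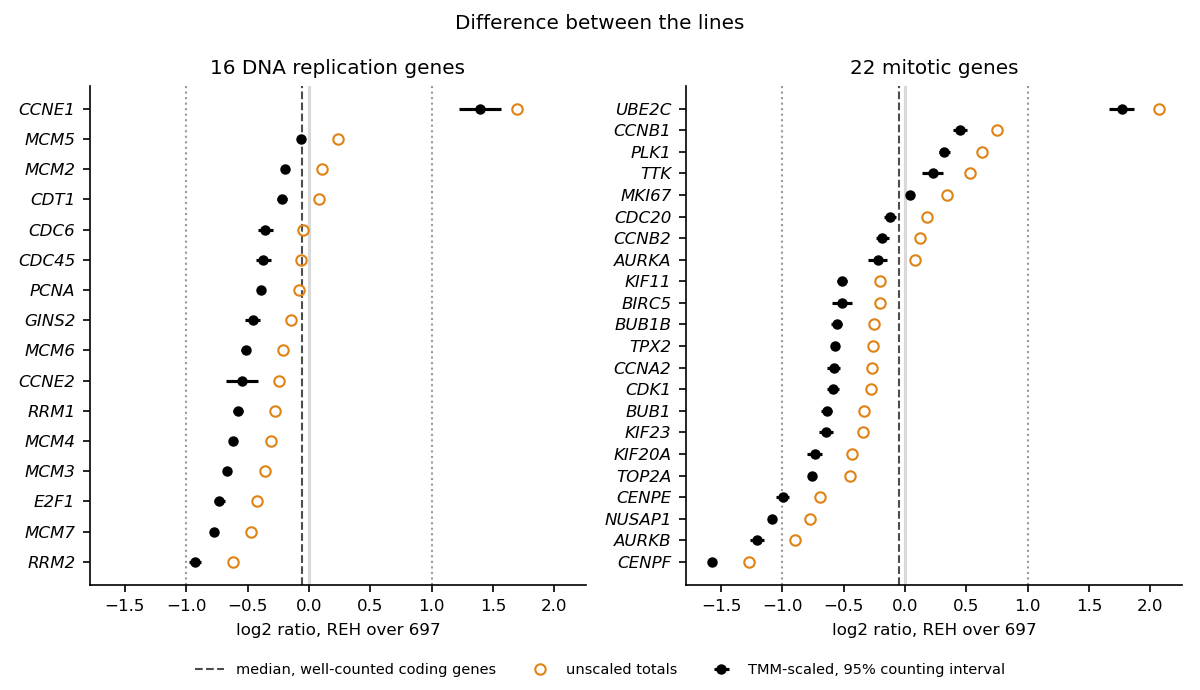
Log2 ratio, REH over 697, of the 16 replication genes (left) and 22 mitotic genes (right). Black points are TMM-scaled values with 95% counting intervals, open orange points are unscaled totals, dotted lines mark a ratio of 1 in size and the dashed line the median of 9693 well-counted coding genes at -0.05. The replication genes sit close together apart from CCNE1, whereas the mitotic genes run from -1.58 for CENPF to 1.77 for UBE2C.

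The sets also differ in their promoters, which do not enter the counts. The words searched are those of the regulators named above for such genes. The split is therefore not independent of how genes and words were chosen. RefSeq promoter windows of 300 bases (250 before and 50 after a start site, GRCh38.p14) were found for 30 members, 13 of replication and 17 of mitosis. No window was given for MCM4, MCM5, CCNE2, AURKA, BIRC5, TTK, TPX2 and UBE2C. Words searched on both strands were TTCCCGC and TTGGCGC, a pair of words bound by E2F, TTTGAA, the cell cycle homology region (CHR) read by DREAM and MYB-FOXM1, and CCAAT, the NF-Y site. On the opposite strand CCAAT reads ATTGG, which can share letters with TTGGCGC or with TTTGAA, as it does in MKI67. An E2F word was present for 10 of the 13 replication genes (76.9%) and 2 of the 17 mitotic genes (11.8%), beside 11% of the 27305 genes in the table. The CHR word was present for 1 replication gene (7.69%) and 11 mitotic genes (64.7%), beside 18.2% of the table. CCAAT was found for 76.9% and 88.2%, beside 39.7%. These are matches of letters, not binding sites, and genes with several windows were counted once if any window matched. The 27305 genes were not filtered by gene type, whereas all members are protein-coding.

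**Figure D3:**
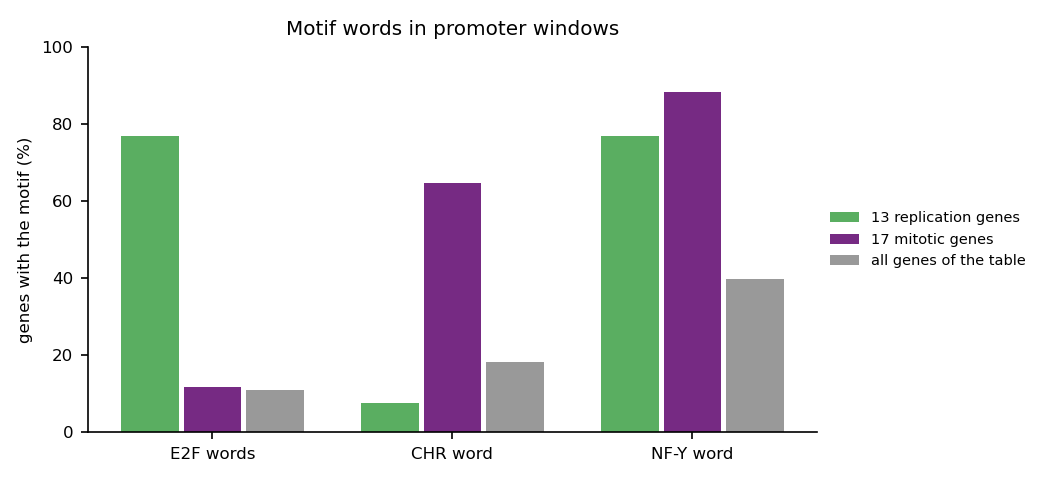
Share of genes whose RefSeq promoter window holds an E2F word, the CHR word or the NF-Y word, for 13 replication genes (green), 17 mitotic genes (purple) and all 27305 genes of the table (grey). The E2F bar is tall for replication genes alone at 76.9%, the CHR bar for mitotic genes at 64.7%, and the NF-Y bars are above the grey bar in both sets.

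The 150 bases before the start site are shown for 8 examples that hold a set's typical word, 4 replication genes with an E2F word and 4 mitotic genes with a CHR word, and for CCNE1 and CENPF because their ratios were among the largest. All are 5′ to 3′ on the strand of the gene, and capitals mark the words searched, in either orientation.
MCM3 (chr6:52284743-52284892, minus strand): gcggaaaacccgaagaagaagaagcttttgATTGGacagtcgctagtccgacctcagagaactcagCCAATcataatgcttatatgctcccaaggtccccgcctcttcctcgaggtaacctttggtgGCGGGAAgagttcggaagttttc
MCM6 (chr2:135876444-135876593, minus strand): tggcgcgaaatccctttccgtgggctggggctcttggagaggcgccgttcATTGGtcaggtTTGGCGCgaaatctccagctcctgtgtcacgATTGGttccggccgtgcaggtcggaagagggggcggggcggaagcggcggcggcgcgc
PCNA (chr20:5126623-5126772, minus strand): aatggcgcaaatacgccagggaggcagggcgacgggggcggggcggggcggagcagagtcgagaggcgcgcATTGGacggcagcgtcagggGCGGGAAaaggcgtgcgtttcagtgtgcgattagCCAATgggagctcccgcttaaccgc
E2F1 (chr20:33686386-33686535, minus strand): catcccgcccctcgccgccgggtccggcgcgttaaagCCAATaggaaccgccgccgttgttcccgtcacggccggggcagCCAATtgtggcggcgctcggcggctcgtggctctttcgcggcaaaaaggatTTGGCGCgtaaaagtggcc
MKI67 (chr10:128126424-128126573, minus strand): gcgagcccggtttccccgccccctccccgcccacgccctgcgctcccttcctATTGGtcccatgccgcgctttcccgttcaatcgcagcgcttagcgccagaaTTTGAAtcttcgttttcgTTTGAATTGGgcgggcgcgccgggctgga
CCNB2 (chr15:59104996-59105145, plus strand): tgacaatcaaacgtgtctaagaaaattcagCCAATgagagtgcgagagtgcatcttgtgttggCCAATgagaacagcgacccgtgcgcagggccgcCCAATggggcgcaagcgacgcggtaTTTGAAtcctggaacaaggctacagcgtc
PLK1 (chr16:23678739-23678888, plus strand): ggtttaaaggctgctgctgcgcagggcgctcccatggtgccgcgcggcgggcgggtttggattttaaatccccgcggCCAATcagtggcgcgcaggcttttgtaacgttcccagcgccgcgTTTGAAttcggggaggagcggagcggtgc
CDC20 (chr1:43358831-43358980, plus strand): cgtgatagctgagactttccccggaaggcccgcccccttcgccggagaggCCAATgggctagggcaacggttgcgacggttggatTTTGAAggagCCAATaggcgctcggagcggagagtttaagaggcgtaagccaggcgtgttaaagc
CCNE1 (chr19:29811841-29811990, plus strand): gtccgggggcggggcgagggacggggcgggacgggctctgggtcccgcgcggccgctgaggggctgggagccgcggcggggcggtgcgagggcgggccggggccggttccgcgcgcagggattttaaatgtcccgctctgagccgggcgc
CENPF (chr1:214603045-214603194, plus strand): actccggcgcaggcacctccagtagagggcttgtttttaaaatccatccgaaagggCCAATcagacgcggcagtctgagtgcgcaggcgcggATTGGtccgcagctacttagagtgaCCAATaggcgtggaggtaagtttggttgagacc
In the first 4, an E2F word accompanies CCAAT on one or both sides. The following 4 pair CCAAT with TTTGAA. The stretch of CENPF holds CCAAT 3 times, its CHR word lying in the rest of its window, and the stretch of CCNE1 holds none of the words.

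Among the replication genes, the MCM helicase was examined first. MCM2 to MCM7 form the ring that unwinds DNA ahead of the fork, 1 copy of each, and all 6 had ratios below 0 (with unscaled totals MCM2 stood at 0.11 and MCM5 at 0.24). MCM7 was the most abundant, with 590 CPM in REH against 1011 CPM in 697 (log2 ratio -0.78). MCM3 reached 424 and 673 CPM (-0.67), and MCM4 369 and 567 CPM (-0.62). MCM6 reached 253 and 362 CPM (-0.52). The remaining subunits differed least, with MCM2 at 447 and 513 CPM (-0.20) and MCM5 at 371 and 389 CPM (-0.07). Subunits of the same ring were therefore not shifted equally. Within each library, MCM5 had 0.629 reads per MCM7 read in REH and 0.384 in 697, a difference of 0.71 on the log2 scale (95% counting interval 0.67 to 0.75) that does not depend on scaling.

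Loading and activation factors shifted in a narrow range. CDC6, the ATPase that loads MCM rings, reached 92.8 CPM in REH against 119 CPM in 697 (log2 ratio -0.36). Its partner CDT1, destroyed once S phase begins, reached 212 and 247 CPM (-0.22). CDC45 (87.1 and 113 CPM, -0.37) and the GINS subunit GINS2 (87.5 and 120.2 CPM, -0.46) complete the active helicase. All 4 lay between -0.46 and -0.22, with CDT1 at 0.08 when totals were left unscaled. PCNA, the clamp that holds polymerases on DNA, reached 338 CPM in REH against 443 CPM in 697 (-0.39). Of the ribonucleotide reductase subunits, which supply deoxynucleotides, RRM1 was at 197 and 294 CPM (-0.58) and RRM2, the subunit whose level follows the cycle, at 130.0 and 248 CPM (-0.93). RRM2 had the lowest ratio of the replication set. Reads of RRM2 per RRM1 read were 0.661 in REH and 0.842 in 697.

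The genes that start S phase did not move together. CCNE1 (ENSG00000105173, chromosome 19, 29811991 to 29824312 in GENCODE 44 on GRCh38) encodes cyclin E1, which activates CDK2. It had 1254 reads in REH and 351 in 697, that is 24.9 and 9.50 CPM, and its log2 ratio of 1.39 (counting interval 1.22 to 1.57) was the only one above 0 in the replication set. CCNE2, encoding cyclin E2, had 927 reads in REH and 997 in 697 (18.4 and 27.0 CPM, log2 ratio -0.55, interval -0.68 to -0.42). There were 1.35 CCNE1 reads per CCNE2 read in REH against 0.352 in 697, a change of 1.94 on the log2 scale (1.73 to 2.16) that is independent of library scaling. These are main-column counts, and that of CCNE2 is incomplete. With the reads of its strand columns CCNE2 had 1875 reads in REH and 2080 in 697, more than CCNE1 in both lines, so which cyclin E gene had more reads in REH depends on the column. E2F1, itself an E2F target, reached 145 CPM in REH against 241 CPM in 697 (-0.73). Without these 3 genes, a choice made after their values were seen, the other 13 replication genes lay between -0.93 and -0.07 with an SD over genes of 0.24, MCM2, MCM5 and CDT1 again crossing 0 without scaling.

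Among the mitotic genes, those of chromosome structure are given first. TOP2A, the topoisomerase that untangles sister chromatids, reached 862 CPM in REH against 1459 CPM in 697 (log2 ratio -0.76). MKI67, the source of the Ki-67 antigen used to score dividing cells, reached 696 and 678 CPM (0.04, interval 0.01 to 0.06, and 0.34 unscaled). With TMM scaling this common marker of proliferation was thus nearly level, while most of the set was lower in REH. The number of MKI67 reads per TOP2A read was 0.807 in REH and 0.465 in 697.

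Cyclins and CDK1 split in direction. CDK1, the kinase that drives entry into mitosis, reached 129.9 CPM in REH against 195 CPM in 697 (log2 ratio -0.59). Its earlier partner CCNA2 behaved alike (111 and 166 CPM, -0.58). CCNB1, encoding the main mitotic cyclin, was on the other side at 135 and 98.9 CPM (0.44, interval 0.39 to 0.50), and CCNB2 was at 119.6 and 136 CPM (-0.18, and 0.12 unscaled). Reads of CCNB1 per CCNB2 read were 1.13 in REH and 0.728 in 697, a difference of 0.63 (0.55 to 0.71).

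The kinases of mitosis ran in both directions. PLK1, required for centrosome maturation and mitotic entry, reached 209.7 CPM in REH against 168 CPM in 697 (log2 ratio 0.32, interval 0.27 to 0.37). AURKA, which acts at spindle poles, was at 55.8 and 65.1 CPM (-0.22, and 0.08 unscaled). AURKB (ENSG00000178999, chromosome 17, 8204733 to 8210600), the kinase of the chromosomal passenger complex, had 4003 reads in REH and 6777 in 697 (79.6 and 183 CPM, log2 ratio -1.20, interval -1.26 to -1.15). There were 1.43 AURKB reads per AURKA read in REH and 2.82 in 697. BIRC5, encoding survivin of the same passenger complex as AURKB, was at 49.9 and 71.2 CPM (-0.51). The paralogous checkpoint genes BUB1 (158 and 246 CPM, -0.64) and BUB1B (154 and 227 CPM, -0.56) shifted nearly alike, with 1.02 and 1.08 BUB1 reads per BUB1B read. The checkpoint kinase gene TTK was higher in REH (59.3 and 50.7 CPM, 0.23, interval 0.14 to 0.31, and 0.53 unscaled).

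The 2 members grouped as kinetochore proteins and the 5 grouped as spindle motors and spindle proteins were all below 0. CENPF (ENSG00000117724, chromosome 1, 214603185 to 214664574), which encodes a large kinetochore protein, had 20228 reads in REH and 44373 in 697 (402 and 1201 CPM). Its log2 ratio of -1.58 (interval -1.60 to -1.55) was the lowest of all 38 genes. CENPE, the kinetochore motor, was just under the doubling at 103 and 206 CPM (-0.997, interval -1.05 to -0.95). NUSAP1 (ENSG00000137804, chromosome 15, 41320794 to 41381050), a microtubule-bundling spindle protein, had 14098 and 21937 reads (280 and 594 CPM, -1.08, interval -1.11 to -1.05). The motors KIF11 (185 and 264 CPM, -0.51), KIF20A (86.4 and 144 CPM, -0.74) and KIF23 (92.1 and 144 CPM, -0.65) separate poles or act in cytokinesis. TPX2, an activator of Aurora A, was at 289 and 428 CPM (-0.57).

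At the APC/C, which ends mitosis, partner genes diverged. CDC20, its activator, reached 158 CPM in REH against 173 CPM in 697 (log2 ratio -0.12, and 0.18 unscaled). UBE2C (ENSG00000175063, chromosome 20, 45812576 to 45816957), the ubiquitin-conjugating enzyme of the complex, had 4385 reads in REH and 947 in 697 (87.2 and 25.6 CPM). Its log2 ratio of 1.77 (interval 1.67 to 1.87) was the highest of the 38 genes. There were 0.551 UBE2C reads per CDC20 read in REH and 0.149 in 697, a difference of 1.89 (1.78 to 2.004). UBE2C thus lay above CDC20, CCNB1 and PLK1, whose ratios ran from -0.12 to 0.44.

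Levels of different genes were compared per kb of summed exon length (GENCODE 44). PCNA was the highest in both libraries, at 241 CPM per kb in REH and 316 CPM per kb in 697, followed by TOP2A (135 and 229), MCM7 (119 and 204) and MCM3 (116 and 185). The Wilson intervals of MCM7 and MCM3 overlapped in REH but not in 697. Cyclin E genes were the lowest, CCNE2 in REH at 4.19 CPM per kb (8.48 with the reads of its strand columns, which puts CCNE2 still lowest) and CCNE1 in 697 at 3.86 CPM per kb. The order of the replication genes was nearly kept between lines (Spearman rho 0.98 over 16 genes), that of the mitotic genes less so (0.68 over 22 genes). Both are descriptions over genes that share the same pair of libraries. A rank correlation also depends on how widely levels are spread, and the replication genes were spread more widely. They ran from 4.19 to 241 CPM per kb in REH and from 3.86 to 316 in 697. Mitotic genes ran from 10.4 to 135 and from 11.1 to 229. UBE2C held rank 10 of the 38 in REH and rank 34 in 697, and CENPF held rank 25 and rank 8. Of 37 neighbouring pairs in the order, 15 in REH and 16 in 697 had overlapping counting intervals. Measured against the longest annotated transcript instead, MCM7 ranked first and PCNA second in 697.

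For 3 members the strand columns show that the main counts are incomplete. The files give reads on either strand, used here, and reads on each strand separately, and a read that falls within genes on both strands is ambiguous in the first count and assigned in the others. BIRC5 had 2508 reads in REH and 2630 in 697, while another 3368 and 3455 reads appeared only in its strand columns, 57.3% and 56.8% of its strand-assigned reads. A gene identifier without a symbol in GENCODE 44, ENSG00000268310, had exactly the same numbers of such reads in both libraries, with 2 and 0 reads of its own in the main column. For CCNE2, whose exons overlap INTS8 and ENSG00000272509 on the opposite strand, 948 and 1083 reads (50.6% and 52.1%) were left out. No other gene had exactly those numbers of such reads in both libraries, so the partner was not identified. For CCNA2, which overlaps EXOSC9, the number was 684 and 734 (10.9% and 10.7%). For RRM1 and KIF23 the share was between 2.26% and 4.399%. It was under 1% for the other 33 members, among them MCM7, NUSAP1 and KIF20A with an annotated partner on the opposite strand. Reads shared with a gene on the same strand are ambiguous in every column, so a loss of that kind would not show here. NUSAP1, BUB1B and MCM7 have annotated exon overlaps on the same strand, and their counts may be incomplete in this way. The ratios hardly depended on the reads found in the strand columns, being -0.49 for BIRC5, -0.59 for CCNE2 and -0.58 for CCNA2 with them added back. Levels did depend on those reads. CCNE2 moved from 4.19 to 8.48 CPM per kb in REH and from 6.14 to 12.8 CPM per kb in 697, and BIRC5 moved from 13.1 to 30.6 CPM per kb in REH and from 18.7 to 43.2 CPM per kb in 697.

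**Figure D4:**
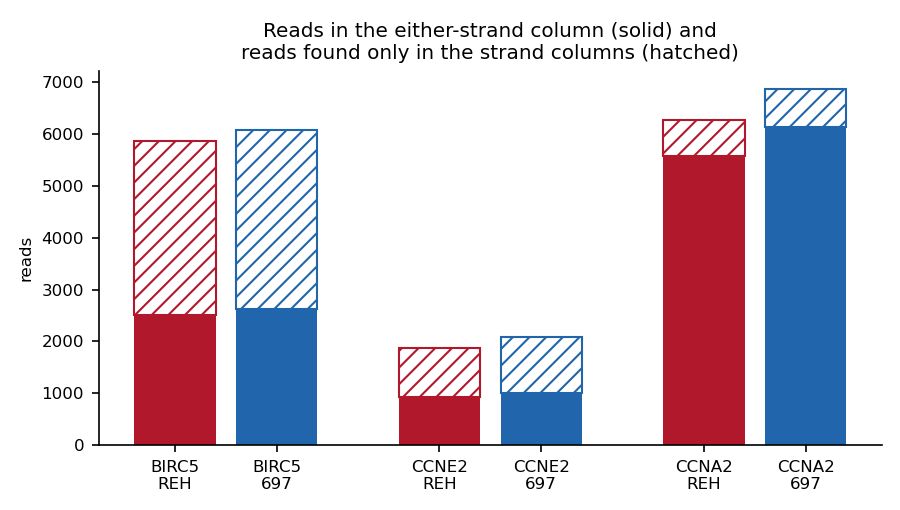
Reads of BIRC5, CCNE2 and CCNA2 in REH (red) and 697 (blue). Solid bars are reads in the either-strand column used for all values, and hatched bars are reads that appear only in the separate strand columns. The hatched part exceeds the solid part for BIRC5 and CCNE2 in both lines and is small for CCNA2.

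To see whether the members stand for their pathways, 183 further genes in 8 lists were described. Their median log2 ratio was -0.41, and 149 of the 183 lay below 0 while 34 lay above (116 and 67 with unscaled totals). With TMM scaling 9171 of the 19145 genes compared and 5123 of the 9693 well-counted coding genes lay below 0. The median of the latter rose from -0.05 to 0.25 with unscaled totals, where their share below 0 is not given here. Of the 183 genes, 146 lay below that median, which moves with any scaling. The 61 further replication genes had a median of -0.44 and the 98 further mitotic genes of -0.41, beside 0.05 for all genes compared. Their interquartile ranges were 0.43 and 0.56, closer to each other than the 0.31 and 0.57 of the members. Spindle and cytokinesis genes had the lowest median (-0.64, 23 genes) and centromere and kinetochore genes the highest (-0.33, 34 genes). Above 0 were 3 of the former and 6 of the latter. The 2 kinetochore members, with a median of -1.29, lay well below the median of the kinetochore list and so did not stand for it. Past a doubling were 3 genes towards REH and 20 towards 697, beside 22.4% and 17.4% of all genes compared. With unscaled totals these numbers became 6 and 9, and the list medians lay between -0.34 and -0.027. The median of all genes compared was then 0.36, and the shares of background genes past a doubling at that scaling are not given here.

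**Figure D5:**
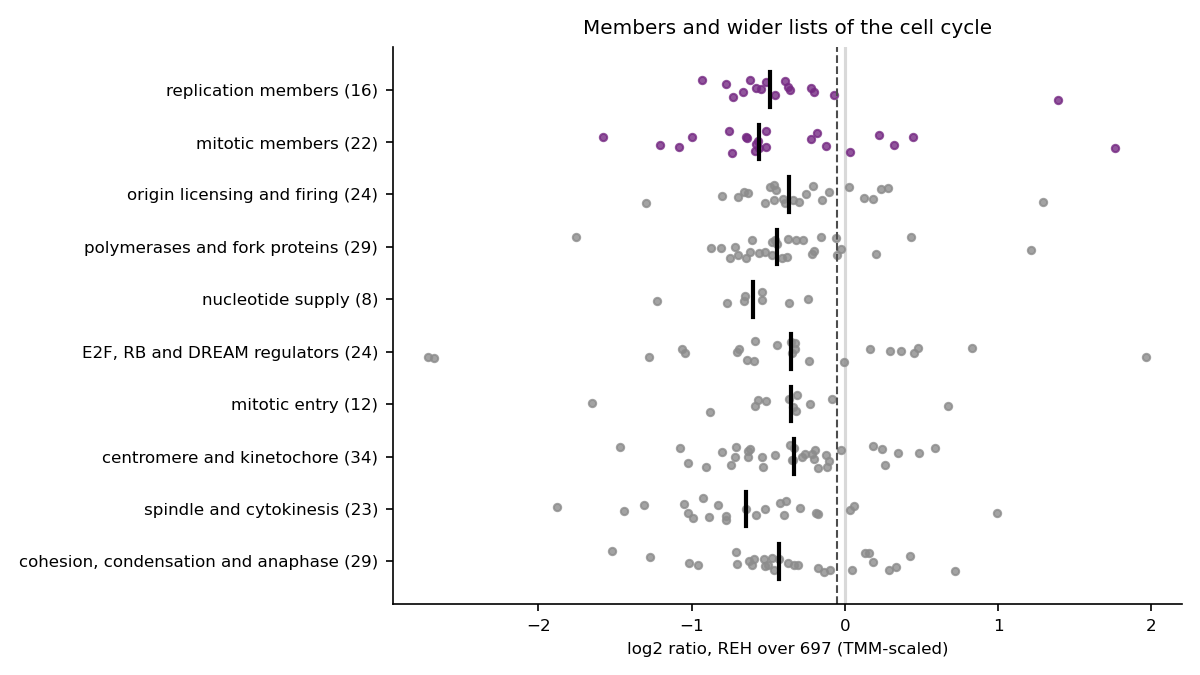
Log2 ratio, REH over 697, of the replication and mitotic members (purple) and of the genes in 8 wider lists (grey), with the number of genes in brackets. Vertical bars are list medians and the dashed line is the median of the well-counted coding genes at -0.05. The medians of all 10 rows lie to the left of the dashed line.

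Named by rule from these lists, the largest ratios in replication concerned RFC3, a subunit of the loader of PCNA (1484 reads in REH and 3676 in 697, log2 ratio -1.75), and MCMBP, which binds MCM subunits (4443 and 8017, -1.30). In the other direction stood the origin recognition subunit ORC3 (2747 and 822, 1.30) and POLD4, the smallest subunit of DNA polymerase delta (392 and 124, 1.21). The list of E2F, RB and DREAM regulators had the widest ratios. E2F5, a repressor-type E2F, had 780 reads in REH and 3678 in 697 (-2.68), whereas TFDP2, a partner of E2F proteins on DNA, had 22298 and 4194 (1.97). FBXW7, the ubiquitin ligase receptor that recognises cyclin E protein, had 2599 and 12566 reads (-2.72), and CDC25A, the phosphatase that activates CDK2, had 1534 and 2732 (-1.28).

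With TMM scaling, 12 of the 98 mitotic genes of these lists were past a doubling towards 697, beside 17.4% of all genes compared and 13.7% of the well-counted coding genes, and none towards REH (with unscaled totals 2 others passed towards REH, CDC26 at 1.02 and TACC3 at 1.30, named after their values were seen). Among the 12 were the spindle motors KIF15 (2661 reads in REH and 7197 in 697, -1.88) and KIF20B (2995 and 5457, -1.31), and the spindle pole gene ASPM (10851 and 21671, -1.44). At the kinetochore were CENPH (2375 and 4817, -1.46), the scaffold KNL1 (5007 and 7763, -1.08) and the checkpoint gene MAD2L1 (3241 and 4848, -1.03). Genes of sister chromatid cohesion were RAD21, a cohesin subunit (17552 and 36977, -1.52), PTTG1, encoding securin (3238 and 5746, -1.27), and SGO2 (2158 and 3210, -1.02). The mitotic kinase gene PBK had 1538 and 3545 reads (-1.65). Without scaling, KNL1, MAD2L1, SGO2, PTTG1, MCMBP and CDC25A were between -0.99 and -0.71 and no longer past the doubling.

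Positions of the members were set against their chromosomes. On chromosome 16, the median of 474 well-counted coding genes was 0.66, and its members CDT1 (-0.22), GINS2 (-0.46) and PLK1 (0.32) all lay below it. Over the 16 chromosomes with members the lowest median was -0.48, on chromosome 8, where MCM4 was at -0.62 and CCNE2 at -0.55. On chromosome 20 the 273 well-counted coding genes had a median of 0.04 and its 5 members a median of -0.39, with E2F1 at -0.73 and UBE2C at 1.77 as the extremes. The part of such chromosome-wide shifts in these ratios was not tested.

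The libraries held 63954817 reads in REH and 58948890 in 697, of which 45188375 and 41097497 were counted in genes. Mitochondrial genes took 3.11% of gene reads in REH and 6.13% in 697, and reads mapping to several places 10.8% and 15.4% of all reads. Their part in the shift of the members was not tested. B-precursor markers were present, with at least 10 reads for 9 of 10 genes in REH (VPREB1 had 3 reads) and for 10 of 10 in 697, summing to 5570 and 7863 CPM. T cell markers summed to 0.935 and 0.0271 CPM, with 3 and 4 of the 5 at 0 reads. Of 6 myeloid and erythroid markers, ELANE and HBB were at 0 in both libraries, and the sum was 252 CPM in REH against 0.623 CPM in 697, almost all of it MPO (12643 and 12 reads).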

How the data were processed

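Total RNA of REH and 697 cells was sequenced, with 1 library per line, and the line named in each label set the group. The authors deposited raw read counts per gene (whole numbers, not normalized), made with STAR from uniquely mapped reads. The genome is hg38 in the study's methods and hg19 in the submitters' processing notes, and the annotation is not given in the sources used here. The labels describe stranded ribodepleted libraries and the methods poly(A) purification, while reads fell evenly on both strands (50.1% and 50.2% on the strand of the gene). The column of either-strand reads was used, and 4 rows of unassigned reads were left out of totals. Reads matching several places are absent from the counts, which lowers genes with near-identical copies.

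Symbols, positions and exon lengths came from GENCODE 44 on GRCh38 by gene identifier (51996 of 57773 identifiers matched, and 5777 did not) and are not the authors' coordinates. Totals were scaled by TMM in edgeR 4.0.16 (R 4.3.3) over genes that reached 10 reads in either library. The log2 ratio used 0.5 added reads. Counting intervals of ratios are exact Clopper-Pearson intervals, those of a library Wilson intervals, at 95%, and those of paired read ratios use the normal approximation to counting error. They cover counting error only. A floor of 3 reads corresponds to 0.0597 (REH) and 0.0812 (697) CPM. The study used DESeq2, which needs replicates, so no test was run. The ratio, call and interval steps were tested on simulated data. In that simulation 200 genes were changed, as many up as down, from a profile shared by both libraries. It therefore cannot show how well TMM scales libraries that differ as widely as these.

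The members and lists were chosen with earlier results of these data known. Named from the wider lists were up to 3 genes per list and direction past a log2 ratio of 1 with at least 100 reads, by the counting bound farthest from 0. Of these, 1 gene is not reported here. The read ratios MCM5 to MCM7, RRM2 to RRM1, MKI67 to TOP2A and UBE2C to CDC20 and the background of genes with at least 500 reads were chosen after seeing values. Alternatives were DESeq2 1.42.0 size factors, unscaled totals, unscaled totals of nuclear genes, TMM from protein-coding genes, 5 added reads, each strand column, minima of 1 and 50 reads, a call at 2, and the longest transcript as length. Python 3.11.15 with scipy 1.17.1 was used. A planned comparison of paralogous proteins was not run.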

Additional observations from a re-analysis of the deposited data

Results flagged for a closer look

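The separate strand columns, which the main comparisons do not use, held reads of 3 members that are absent from the main column. For each of them these reads exceeded 10% of the strand-assigned reads, the limit set for this flag. CCNA2 passed that limit only narrowly. The share of strand-assigned reads was 57.3% in REH and 56.8% in 697 for BIRC5. For CCNE2 it was 50.6% and 52.1%. For CCNA2 it was 10.9% and 10.7%. The shares differed by under 2 percentage points between the lines, and a cause was not tested.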

How the results depend on the processing

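With 1 library per line no spread is known, and leaving out a replicate was not possible. No paired analysis was possible because every group here holds a lone library. DESeq2 size factors, TMM from protein-coding genes, 5 added reads, either strand column and minima of 1 or 50 reads moved no count by over 1.5 times and no list median out of its order-statistic interval, and no member changed sign. With DESeq2 size factors and with the strand of the gene, CENPE also passed the doubling, making 4 members higher in 697. With unscaled totals the median was -0.18 for replication members, -0.059 for origin licensing and firing, -0.13 for polymerases and fork proteins, -0.044 for mitotic entry, -0.027 for centromere and kinetochore, and -0.34 for spindle and cytokinesis genes, 1 member was higher in 697, and 6 wider-list genes were higher in REH and 9 in 697. With unscaled totals of nuclear genes the corresponding medians that moved were -0.18 for polymerases and fork proteins, -0.090 for mitotic entry, -0.072 for centromere and kinetochore, and -0.38 for spindle and cytokinesis genes, 1 member was higher in 697, and 5 and 12 wider-list genes were called. In both of these settings 6 members changed sign. Shares of background genes called in these settings are not given here, so their counts of called genes have no background beside them. At a call of 2, 0 members were higher in REH and 0 in 697, and 0 and 2 wider-list genes were called. Per kb of the longest transcript the set medians were 1 to 1.5 times those per kb of summed exons.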

Other observations

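Pseudogene copies named after a member were present in the files for 9 of the 38 genes, 18 copies in all, of which 8 had 0 reads in both libraries. Only UBE2CP5, a copy of UBE2C, passed 50 reads, with 227 reads in REH and 65 in 697, or 5.18% and 6.86% of the UBE2C reads. Since reads that match several places are not in the counts, the split between UBE2C and its copies is uncertain. UBE2C also has the shortest summed exon length of the members at 1.29 kb, and CENPF and MKI67 the longest at 12.5 and 12.8 kb. Across the 38 genes the Spearman rho between exon length and log2 ratio was -0.32, against 0.01 across the 9693 well-counted coding genes and 0.02 across the 183 genes of the wider lists. By the longest transcript it was -0.24 across the 38 genes. All points come from the same pair of libraries, and the value is a description only.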
